A study of Mus musculus with 35 samples.

Results

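The 10 genes described here, Cdkn1a, Mdm2, Ccng1, Bax, Phlda3, Eda2r, Zmat3, Trp53inp1, Sesn2 and Bbc3, are known transcriptional targets of p53 and were taken by symbol from a table of 36106 genes. Each symbol matched 1 gene, and all 10 passed the filter on low counts in each comparison. The series holds bulk RNA sequencing of 35 pieces of skin from 19 mice, all female, 10 weeks old and of the inbred strain C57BL/6J. Radiated skin had received 25 Gy on the left flank and was taken at weeks 1, 2, 3 and 4, with 4 samples a week. Control skin was taken in the same weeks, again 4 samples a week. Sham skin came from 3 mice that had no radiation, and the labels give no week for it. With 35 samples from 19 mice, radiated and control skin sharing a week and a number are taken here to be from 1 mouse. Control skin is then skin of irradiated animals, from a site that the labels do not name. No transgene or deletion is named, and weeks are different mice. In bulk tissue, fewer cells of a type and less RNA per cell cannot be told apart.

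p53 is a transcription factor that is stabilised when DNA is broken, as after ionising radiation. It then switches on genes that stop the cell cycle, repair DNA or start cell death, and it also switches on Mdm2, whose product marks p53 for destruction and so limits the response. In skin, p53 acts in the keratinocytes of the epidermis and in the hair follicle, where irradiation can arrest growth and kill dividing cells.

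Because p53 binds DNA directly, the promoters of the genes were read for its sequence element, which is built from copies of a 10-base p53 half-site. The table of RefSeq promoters used (mouse build GRCm38.p6, windows from 250 bases before to 50 bases after a start) held 11 windows for 8 of the genes and had no entry for Zmat3 and Trp53inp1. A half-site is its own reverse complement in pattern, so a search covers both strands, and pairs were allowed a spacer of 0 to 13 bases. The 3 stretches below, printed 5′ to 3′ on the strand of the gene, are those in which a pair with at most 2 mismatches was found, with the half-sites in capitals.
Cdkn1a, chr17:29090886-29090965, plus strand: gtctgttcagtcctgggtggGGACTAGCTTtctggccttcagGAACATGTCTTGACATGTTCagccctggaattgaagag
Ccng1, chr11:40755433-40755512, minus strand: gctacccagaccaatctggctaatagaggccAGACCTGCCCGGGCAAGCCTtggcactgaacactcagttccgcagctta
Bax, chr7:45467058-45467137, minus strand: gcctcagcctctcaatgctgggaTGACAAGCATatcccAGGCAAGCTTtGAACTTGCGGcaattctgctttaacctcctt
The Cdkn1a stretch held a pair with 0 mismatches at a spacer of 12 bases, and its second half-site adjoined another with 1 mismatch in the pair. The Ccng1 pair had 1 mismatch and no spacer. The Bax stretch held overlapping pairs with 2 mismatches each. Among 32851 windows of the same length, 0.0731% held a pair with 0 mismatches, 0.627% a pair with at most 1, and 4.09% a pair with at most 2. These are matches of letters and no measurement of binding. In week 3 Bax was higher in radiated than in control skin, Ccng1 was lower, and Cdkn1a did not pass the test, with the values given further on.

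Library totals ran from 17362853 to 28487885 estimated counts. A member's count in a library lay between 57, for Bbc3, and 38987, for Cdkn1a. For Bbc3, the least abundant, counting error can make up much of the spread within a group, as in control skin of week 2, where its counts were 88 to 103. Levels are given in CPM, a count scaled to 1e6 counts of its library after TMM scaling. Some libraries stood apart over the 10 genes. The radiated library of week 1 with number 1 was the lowest of its group in 6 of the 10 genes and the highest in 0. Number 4 was the highest of that group in 7. In radiated skin of week 2 number 3 was the highest in 6, and in week 3 number 3 was the highest in 6 and number 4 the lowest in 7. In control skin number 1 was the lowest in 6 genes in week 1, 7 in week 2 and 6 in week 4. The spread over all 35 libraries was smallest for Zmat3, with 3.26-fold between its lowest and highest library, and widest for Trp53inp1, with 10.6-fold.

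**Figure D1:**
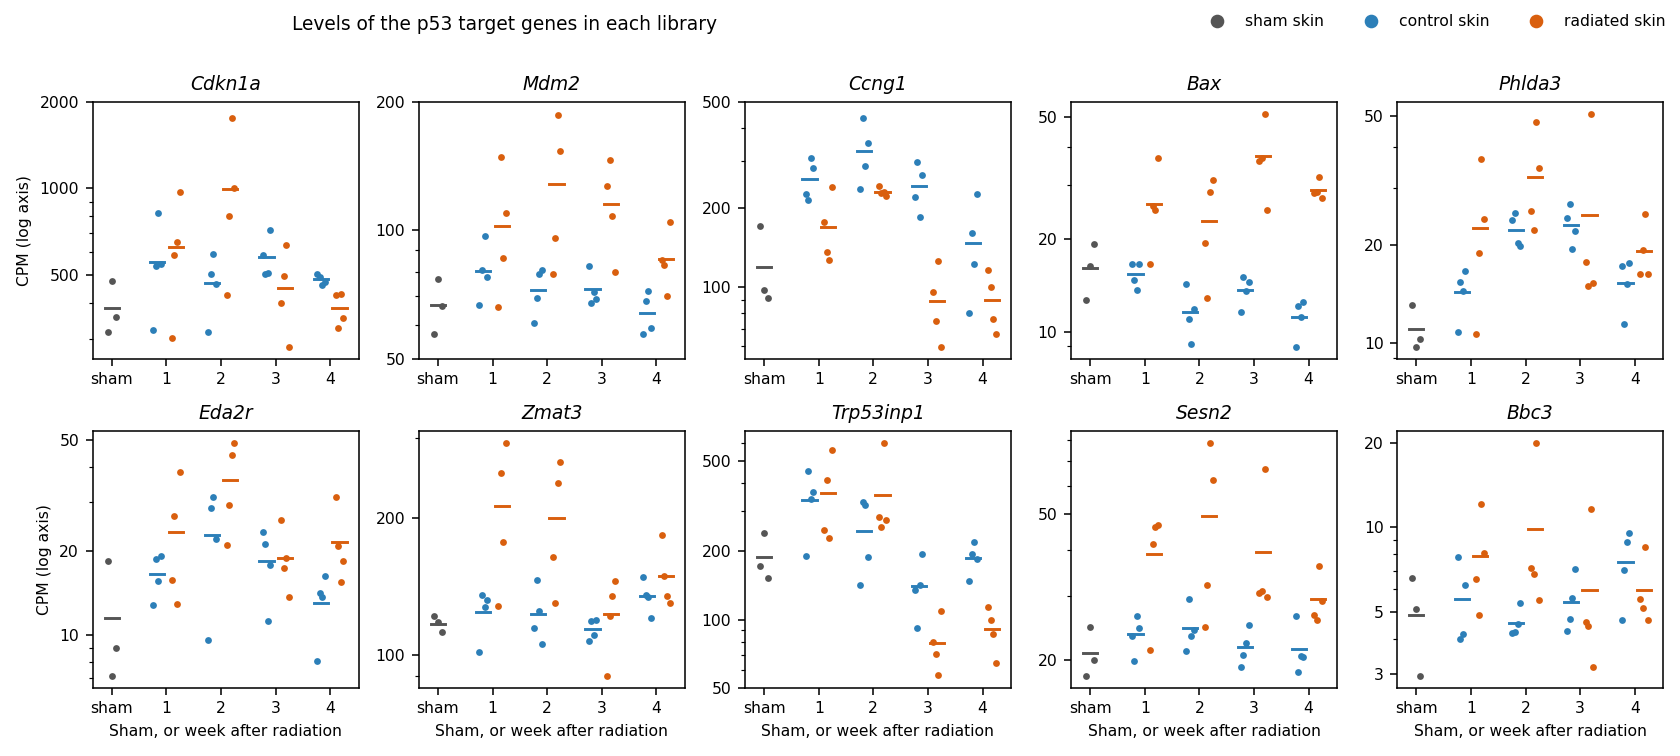
Level of each gene in each library, in CPM on a log axis, against sham skin (grey) and the week after radiation for control (blue) and radiated skin (orange). Points are libraries and bars are group means. The 16 radiated Bax values each lie above the control value of the same week and number, while the radiated Ccng1 values lie mostly below.

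Radiated skin was compared with control skin of the same week to ask how the p53 targets responded to local irradiation and for how long. A gene was counted as differing when its edgeR p, adjusted over all genes tested, was under 0.05. In week 1, 0 of the 10 genes passed, against 0% of 17578 genes tested. In week 2 again 0 passed, against 0.00577% of all genes. At an unadjusted p under 0.05 the counts were 4 of 10 in week 1, where 14.1% of all genes reached it, and 8 of 10 in week 2, against 13.8%. In week 3, 5 genes passed, against 27.2% of all genes: Mdm2, Bax and Sesn2 were higher (13.6% of all genes), and Ccng1 and Trp53inp1 were lower (13.6%). In week 4 it was 6, against 48.4%: Mdm2, Bax, Eda2r and Sesn2 were higher (24.2% of all genes), and Cdkn1a and Trp53inp1 were lower (24.2%). The week 4 count lies near its background. Under total-count scaling 76.1% of the calls over all genes in week 3 were higher, in place of 50.1%, and 70.5% in place of 53.3% in the mean of 4 weeks. In 1 fit of all 35 libraries the week 4 count was 3, against 35% of all genes, with Mdm2 (adjusted p 0.148), Eda2r (0.122), Sesn2 (0.214) and Cdkn1a (0.455) lost and Ccng1 (0.0403) gained in edgeR. In the same fit the week 2 count was 3 in place of 0, against 2.75% of all genes, with Mdm2 (0.0398), Bax (0.0174) and Sesn2 (0.0442).

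The median log2 fold change of the 10 genes was 0.51, 0.76, 0.13 and 0.24 in weeks 1 to 4, beside 0.05, -0.0025, 0.08 and 0.02 over all genes tested. Of the 10 genes, 9, 9, 7 and 6 were above 0, while 54.9%, 49.6%, 54.8% and 51.1% of all genes were. Over the mean of the 4 weekly differences, from 1 joint fit of 32 libraries without sham, 7 of the 10 genes passed, against 48.5% of all genes: Bax, Sesn2, Mdm2, Eda2r, Zmat3 and Phlda3 were higher and Ccng1 was lower (all genes: 25.9% higher and 22.6% lower). The change of the difference over the weeks passed in 1 gene, Trp53inp1, against 15.6% of all genes. With the mouse as a block the weekly counts were 0, 1, 4 and 4, against 0%, 3.7%, 21.1% and 42.7% of all genes in that fit. In that fit the mean of 4 weeks again gave 7 (48.4% of all genes), with Phlda3 lost (adjusted p 0.116) and Trp53inp1 gained (0.0414), and Cdkn1a joined Trp53inp1 in the change over weeks (15.8%).

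**Figure D2:**
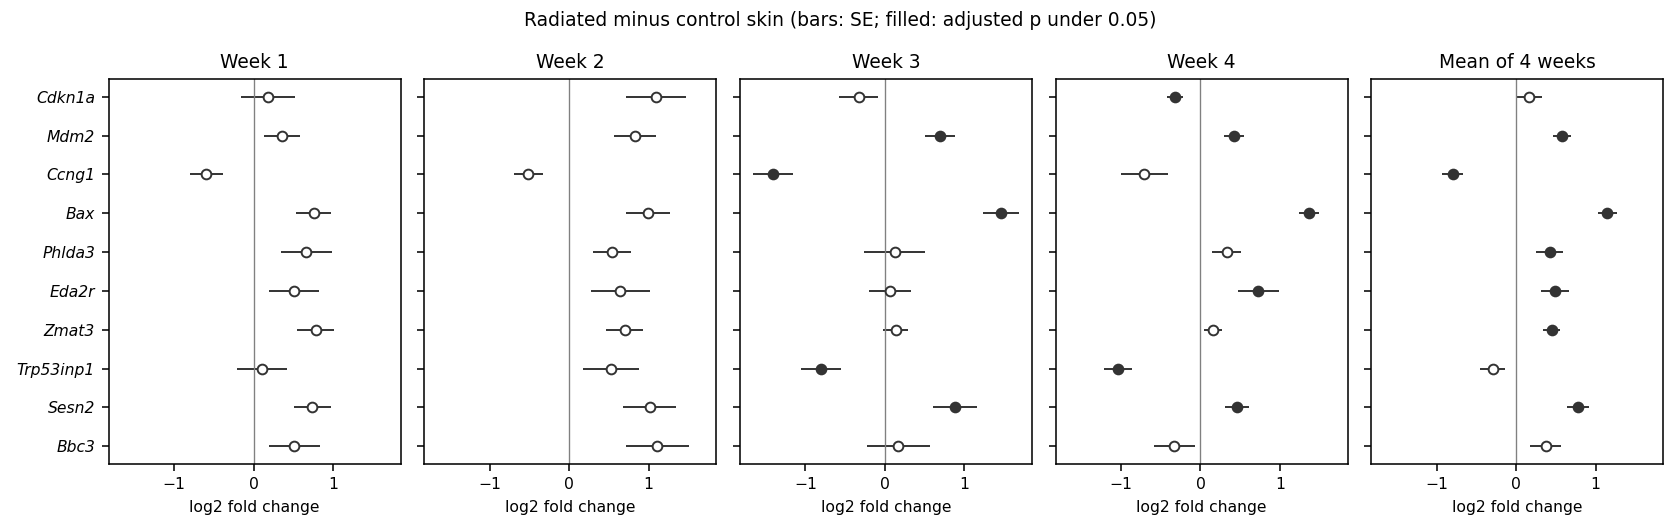
Log2 fold change of radiated minus control skin for each gene in weeks 1 to 4 and for the mean of 4 weeks. Bars are standard errors and filled points have an adjusted p under 0.05 in edgeR. The differences of weeks 1 and 2 are mostly positive and unfilled, and Bax is the filled point farthest to the right in week 3, week 4 and the mean.

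Mdm2 (chromosome 10, 117688875 to 117710758, GRCm38, minus strand), the ubiquitin ligase that removes p53, was higher in radiated skin in weeks 3 and 4. In week 3 its level was 127, 146, 108 and 79.8 CPM in radiated skin of numbers 1 to 4 and 82.5, 67.7, 71.9 and 69.1 CPM in control skin. The radiated library of number 4 lay inside the control range and the other 3 lay above it. This is a log2 fold change of 0.69, with an SE of 0.19 and an edgeR adjusted p of 0.0226. In week 4 the difference was smaller, with 85.4, 82.8, 70.2 and 105 CPM against 57.3, 68.4, 72.1 and 59.0 CPM, a log2 fold change of 0.42 with an SE of 0.13 (edgeR adjusted p 0.0208, and 0.0603 with the mouse as a block). In week 2 Mdm2 reached 186 CPM in number 3 and 154 CPM in number 4, beside 79.0 and 95.8 CPM in numbers 1 and 2 and 60.8 to 80.7 CPM in control skin, and the difference of 0.83 did not pass (edgeR adjusted p 0.21). Over the 4 weeks Mdm2 was higher by 0.58 (SE 0.12, edgeR adjusted p 1.42e-04) and higher in 13 of 16 pairs, which 17.2% of all genes matched or exceeded. The week 3 call was lost without radiated number 1 or 2 or control number 2, 3 or 4, with an adjusted p of up to 0.0635, and the week 4 call without radiated or control number 4, with up to 0.0504.

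Of the cell-cycle genes, Cdkn1a (chromosome 17, 29090976 to 29100727, plus strand) encodes p21, an inhibitor of the kinases that drive the cycle. It had the highest level per length among the 10 genes, with a median over the libraries of 139 CPM per kb of exon. In week 2 it measured 426, 804, 1760.3 and 1003 CPM in radiated skin against 317, 505, 589.5 and 463 CPM in control skin. Each radiated library was above the control of its number, as in 13.5% of all genes in that week. Of the 4 radiated libraries, 3 were above all control libraries, and number 3 stood highest of all 35. The log2 fold change of 1.09 (SE 0.38) did not pass in edgeR (adjusted p 0.246), and with the mouse as a block it was 0.94 (adjusted p 0.0459). Without radiated number 3 it was 0.66 (edgeR adjusted p 0.492).

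By week 4 the order was turned around. Radiated skin held 427, 326, 429 and 354 CPM of Cdkn1a, and control skin held 505, 491, 463 and 472 CPM, so that the groups did not overlap, as in 23.2% of all genes in that direction. The log2 fold change was -0.32 (SE 0.11, edgeR adjusted p 0.0291, a decrease of 20.0%). This small difference was lost without radiated number 2 or 4 or control number 1, 2 or 4 (adjusted p up to 0.0794), with total-count scaling (0.101) and in 1 fit of all 35 libraries (0.455). The change of Cdkn1a over the weeks had an adjusted p of 0.0824 in edgeR, and of 0.0369 with the mouse as a block. An antisense gene overlaps Cdkn1a, and the sources used here do not say whether strand was used in counting.

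Ccng1 (chromosome 11, 40748552 to 40755311, minus strand) encodes cyclin G1, which acts with a phosphatase on Mdm2. Unlike most of the 10 genes it was lower in radiated skin. In week 3 it measured 96.2, 74.5, 126 and 59.5 CPM there and 219, 297, 184 and 266 CPM in control skin, and every radiated library lay below every control library, as in 17.3% of all genes. The log2 fold change was -1.41 (SE 0.25, edgeR adjusted p 0.00423), and it passed in each of the 14 alternatives run. In week 4 it was -0.71 (edgeR adjusted p 0.074), and -0.89 (0.0118) without control number 1. Over the 4 weeks Ccng1 fell by 0.80 on the log2 scale (SE 0.13, edgeR adjusted p 1.38e-05), and it was higher in radiated skin in 2 of 16 pairs, a count that 12.3% of all genes had or fell under.

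Skeletal muscle RNA was lower in the same radiated groups. The summed level of 5 muscle markers (Acta1, Ckm, Myh4, Mylpf and Actn3) had medians of 21053, 23010, 18644 and 6112 CPM in control skin of weeks 1 to 4, and of 6820.3, 9852, 2287 and 724 CPM in radiated skin. In sham skin the median was 5608 CPM. In week 3 the ranges did not overlap, with 1966 to 6213 CPM in radiated and 10627 to 22725 CPM in control skin, and 4 of the 5 markers passed as lower. The control library of week 4 with the fewest muscle counts, 791 CPM, was also the one with the least Ccng1, 79.8 CPM against 122 to 226 CPM in the other 3. The part of muscle in the Ccng1 difference was not tested.

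**Figure D3:**
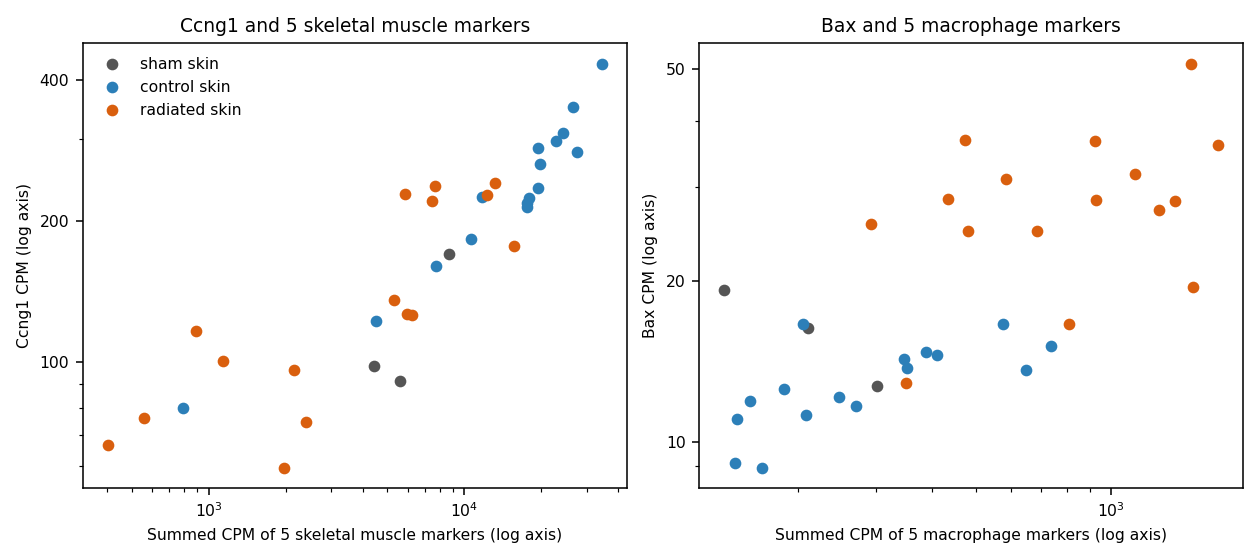
Left: Ccng1 against the summed level of 5 skeletal muscle markers. Right: Bax against the summed level of 5 macrophage markers. Each point is 1 of 35 libraries, both axes are CPM on a log scale, and colours give sham, control and radiated skin. The control libraries of weeks 1 and 2 hold most of the highest levels of both the muscle markers and Ccng1, and the radiated libraries hold most of the highest levels of both Bax and the macrophage markers.

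Among the genes of cell death, Bax (chromosome 7, 45461697 to 45466898, minus strand) encodes a protein that opens the outer membrane of mitochondria. It rose in radiated skin in weeks 3 and 4, and over the mean of 4 weeks its difference was the largest of the 10. Its levels in radiated skin were 16.7, 25.6, 24.8 and 36.7 CPM in week 1. The week 2 values were 19.5, 12.9, 28.5 and 31.1, those of week 3 were 36.0, 36.6, 51.2 and 24.9, and those of week 4 were 28.3, 28.4, 31.8 and 27.2. The lowest of these was number 2 of week 2 and the highest number 3 of week 3. Control skin held 16.6, 14.8, 13.7 and 16.6 CPM in week 1. The week 2 values were 14.3, 11.1, 9.13 and 11.9, those of week 3 were 11.7, 15.2, 13.6 and 14.6, and those of week 4 were 8.94, 12.2, 11.2 and 12.6. The radiated group lay above the control group without overlap in weeks 1, 3 and 4, in week 1 only by 16.65 against 16.61 CPM, as did 3.49%, 14.4% and 22.9% of all genes, and in week 2 number 2 of radiated skin lay within the control range.

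The log2 fold changes of Bax were 0.76 (SE 0.22) in week 1, 0.99 (SE 0.28) in week 2, then 1.46 (SE 0.22) and 1.37 (SE 0.13). Their adjusted p-values in edgeR were 0.232, 0.173, 0.00243 and 2.45e-05. Without radiated number 2 the week 2 difference was 1.19 (edgeR adjusted p 0.0488). Over the 4 weeks Bax was higher by 1.15 (SE 0.12, edgeR adjusted p 1.68e-08), and it was higher in 16 of 16 pairs, as were 1.81% of all genes. The calls of weeks 3 and 4 held in each of the 14 alternatives and that of the mean in each of 9. The difference did not change over the weeks past the threshold (edgeR adjusted p 0.304). A gene of the same strand, Gm45808, overlaps Bax, and reads of their shared bases may have been split between them.

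Marker sums of macrophages, neutrophils and fibroblasts were also higher in radiated skin of week 4, and that of T cells (Cd3e, Cd3g, Cd3d, Trac and Cd2) was lower, with 16.3 to 25.9 CPM against 27.3 to 30.5 CPM. The summed level of 5 macrophage markers (Cd68, Adgre1, Csf1r, Mrc1 and Lyz2) was 683 to 1739 CPM in radiated skin of week 3 against 270.0 to 737 CPM in control skin, and 928 to 1389 CPM against 167 to 248 CPM in week 4. In week 3, 3 of the 5 macrophage markers passed as higher (13.6% of all genes), and in week 4, 5 of the 5 (24.2%). Of the 5 T cell markers 1 was higher and 1 lower in week 4, near the 24.2% of all genes in each direction. The 5 neutrophil markers were S100a8, S100a9, Ly6g, Cxcr2 and Retnlg. Their sums were 64.0 to 575 CPM in radiated and 6.76 to 10.6 CPM in control skin of week 3. In week 4 they were 116 to 321 CPM in radiated and 7.78 to 11.6 CPM in control skin. The defining neutrophil marker Ly6g was at 0 in the control skin of week 4. In each of these weeks 4 of the 5 neutrophil markers could be tested, and all 4 passed as higher. Macrophage sums were 292 to 808 CPM against 206 to 575 CPM in week 1 and 349 to 1526 CPM against 145 to 345 CPM in week 2, and neutrophil sums were 7.38 to 84.9 CPM against 4.25 to 9.16 CPM in week 1. For fibroblasts, the summed level of Col1a1, Col3a1, Pdgfra, Dpt and Lum was 8832 to 16554 CPM in radiated and 1059 to 8542 CPM in control skin of week 3, where 1 of the 5 passed as higher and 1 as lower, and 21834 to 35353 CPM against 1185 to 2840 CPM in week 4, where 4 of the 5 passed as higher. The part of these cell types in the Bax difference was not tested.

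Bbc3 (chromosome 7, 16308393 to 16318205, plus strand) encodes PUMA, which activates Bax, and it was the least abundant of the 10 genes. In week 2 its radiated libraries held 7.12, 6.78, 20.0 and 5.50 CPM and its control libraries 4.18, 4.22, 4.50 and 5.37 CPM. The groups did not overlap, as in 3.97% of all genes in that direction, yet the log2 fold change of 1.11 (SE 0.39) did not pass (edgeR adjusted p 0.258), and it was 0.49 (0.48) without radiated number 3. In week 4 it stood at -0.33 (edgeR adjusted p 0.321), with overlapping groups. Bbc3 passed in 0 of the 4 weeks and not in the mean of 4 weeks (0.37, edgeR adjusted p 0.11), which turned to -0.06 without number 3 of each group and passed at 0.58 without number 4 (adjusted p 0.0441) and at 0.48 with total-count scaling (0.0316).

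Phlda3 (chromosome 1, 135766119 to 135769136, plus strand) encodes an inhibitor of the survival kinase Akt. It was higher over the 4 weeks by 0.42 (SE 0.16, edgeR adjusted p 0.0358), and no single week passed. In week 3 it measured 17.8, 15.0, 50.8 and 15.3 CPM in radiated skin against 24.3, 26.7, 19.5 and 22.1 CPM in control skin. Number 3 lay far above its group, and the other 3 lay below all control libraries. With all libraries the week 3 difference was 0.13 (edgeR adjusted p 0.834), and without radiated number 3 it was -0.51 (adjusted p 0.0487). The mean over 4 weeks fell to 0.04 without number 3 of each group (edgeR adjusted p 0.839), and the call was also lost without number 4 (0.0854) and with no filter on low counts (0.0594).

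Eda2r (chromosome X, 97333840 to 97377216, minus strand) encodes a receptor for ectodysplasin A2. It passed in week 4, with 31.2, 20.9, 15.5 and 18.4 CPM in radiated and 8.04, 14.1, 13.6 and 16.3 CPM in control skin. Number 3 of radiated skin lay within the control range. The log2 fold change was 0.73 (SE 0.26, edgeR adjusted p 0.0418, and 0.112 with the mouse as a block), and it passed in 6 of 14 alternatives. Leaving out radiated number 1, 2 or 4 or control number 1, 2 or 3 ended the call, with an adjusted p of up to 0.119. Over the 4 weeks Eda2r was higher by 0.49 (SE 0.17, edgeR adjusted p 0.0199), a call lost without number 1, 2 or 4 (adjusted p up to 0.104).

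Sesn2 (chromosome 4, 132492032 to 132510501, minus strand) encodes sestrin 2, which restrains mTORC1 and supports antioxidant defence. It was higher in radiated skin in 15 of 16 pairs, a count that 5.39% of all genes matched or exceeded. In week 1 the radiated libraries held 21.3, 41.5, 46.3 and 46.8 CPM and the control libraries 23.3, 19.9, 26.3 and 24.5 CPM. Number 1 of radiated skin sat at the control level and the other 3 lay well above it. The difference of 0.74 did not pass (edgeR adjusted p 0.245), and without that library it was 0.93 (adjusted p 0.0218). Zmat3 passed alongside it then, and the week 1 count went from 0 to 2. The share of all genes called in that fit was not computed.

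In week 3 Sesn2 measured 30.5, 30.8, 66.5 and 29.7 CPM against 19.2, 20.6, 22.2 and 24.9 CPM, with no overlap, as in 14.4% of all genes in that direction. The log2 fold change was 0.89 (SE 0.27, edgeR adjusted p 0.0391, and 0.0597 with the mouse as a block), and it fell to 0.51 (edgeR adjusted p 0.0279) without the high library of number 3. In week 4 it was 0.46 (SE 0.15, edgeR adjusted p 0.0273). Leaving out any 1 control library ended the week 3 call (adjusted p up to 0.1), and leaving out control number 2, 3 or 4 or radiated number 3 or 4 ended that of week 4 (up to 0.0699). The mean of 4 weeks, 0.78 (SE 0.14, edgeR adjusted p 6.16e-05), passed in each of 9 alternatives.

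Zmat3 (chromosome 3, 32334792 to 32366014, minus strand) encodes an RNA-binding zinc finger protein. It passed in no single week, and its largest differences were those of weeks 1 and 2. In week 1 it held 128, 251, 177 and 293 CPM in radiated and 102, 136, 127 and 132 CPM in control skin, and in week 2 it held 164, 130.0, 239 and 266 CPM against 115, 146, 125 and 106 CPM. In both weeks 3 of the 4 radiated libraries lay above all control libraries. By weeks 3 and 4 the log2 fold changes were 0.14 and 0.16, after 0.78 and 0.70 in weeks 1 and 2, and the change over weeks did not pass (edgeR adjusted p 0.204). The mean of 4 weeks was 0.45 (SE 0.10, edgeR adjusted p 8.02e-04) and passed in each of 9 alternatives.

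Trp53inp1 (chromosome 4, 11156431 to 11174379, plus strand) encodes a stress protein that takes part in cell death and autophagy. It fell in radiated skin in weeks 3 and 4 and did not pass in weeks 1 and 2. Radiated libraries held 248, 412, 229 and 557 CPM in week 1. The week 2 values were 283, 255, 604 and 276, those of week 3 were 79.7, 70.5, 57.1 and 109, and those of week 4 were 113, 99.3, 86.0 and 64.6. Each radiated library of weeks 3 and 4 lay below each of weeks 1 and 2, a pattern whose share over all genes was not computed. Control libraries held 190.0, 453, 340.1 and 364 CPM in week 1. The week 2 values were 141, 329, 320.3 and 189, those of week 3 were 135, 91.8, 142 and 195, and those of week 4 were 148, 194, 220.2 and 186. The groups overlapped in weeks 1 to 3. In week 4 every radiated library lay below every control library, as in 23.2% of all genes in that direction.

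The log2 fold changes of Trp53inp1 were 0.11 (SE 0.32), 0.53 (SE 0.35), -0.81 (SE 0.25) and -1.04 (SE 0.18) in weeks 1 to 4. Their adjusted p-values in edgeR were 0.889, 0.535, 0.0406 and 9.47e-04. The test of the change over weeks gave an adjusted p of 0.0401 in edgeR and 0.0105 with the mouse as a block. That call was lost on leaving out number 1, 2, 3 or 4 of each group (adjusted p 0.062 to 0.206). The week 4 call held in each of 14 alternatives, while that of week 3 was lost without radiated number 1, 2 or 3 or control number 1, 3 or 4 (adjusted p up to 0.109) and with total-count scaling (0.142). Keratinocyte marker sums (Krt5, Krt14, Krt1, Krt10 and Krt15) were 10868 to 15642 CPM in radiated and 20570 to 22970 CPM in control skin of week 4, with 3 of the 5 markers lower and 1 higher past the threshold, and their part in the Trp53inp1 difference was not tested.

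Sham skin gives a comparison with animals that were never irradiated. The 4 radiated and 4 control comparisons with sham share the same 3 sham libraries, and so their results are not independent of each other. Against sham, 0 of the 10 genes passed in radiated skin of week 1 (1.75% of all genes), 2 in week 2 (5.06%), 3 in week 3 (18.2%) and 3 in week 4 (26.7%). The week 2 count was 7 with the DESeq2 Wald test (14.1% of all genes) and 7 in 1 fit of all 35 libraries (16.4%), and those of weeks 3 and 4 were 5 and 5 with the Wald test (26.7% and 32.8%). At an unadjusted p under 0.05 the week 1 count was 7 of 10, against 16.6% of all genes. In control skin the counts were 1 in week 1 (4.92% of all genes), 2 in week 2 (2.44%), 2 in week 3 (11.4%) and 0 in week 4 (3.65%). In week 4 of control skin 2 of the 10 reached an unadjusted p under 0.05, against 22% of all genes, and 0 passed in each alternative run, the DESeq2 Wald test included. Among all genes called in control against sham skin, 66.5%, 56.3% and 45.5% were higher in weeks 1 to 3, and 43.5%, 38.1% and 22.6% with total-count scaling. In radiated skin of week 2 it was 42.7%, and 28.7% with total-count scaling.

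Radiated skin lay above sham without overlap in 1, 6, 4 and 4 of the 10 genes in weeks 1 to 4, as did 6.97%, 9.39%, 15.6% and 18.5% of all genes. It lay below sham in 1 gene, Trp53inp1, in week 3 (18.1% of all genes) and in week 4 (19.3%). Control skin lay above sham in 1, 2 and 3 genes in weeks 1 to 3 (12.6%, 9.87% and 12.7% of all genes) and below it in 1 gene, Bax, in week 4 (9.64%). The week 2 set of radiated skin was Mdm2, Ccng1, Phlda3, Eda2r, Zmat3 and Trp53inp1.

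Bax and Trp53inp1 differed from sham in radiated skin in the same directions as from control skin. Sham libraries held 12.7, 16.4 and 19.3 CPM of Bax, all below the radiated libraries of weeks 3 and 4, and the log2 fold changes were 1.25 (SE 0.27, edgeR adjusted p 0.0178) in week 3 and 0.89 (SE 0.17, adjusted p 0.00546) in week 4. In control skin of week 4 all Bax libraries lay below sham, and the difference of -0.53 did not pass (edgeR adjusted p 0.156). Trp53inp1 held 172, 242 and 152 CPM in sham skin, all above radiated skin of weeks 3 and 4. Its log2 fold changes against sham were -1.21 (edgeR adjusted p 0.018) and -1.01 (adjusted p 0.0115). Mdm2 was higher than in sham skin in week 3 by 0.83 (SE 0.23, edgeR adjusted p 0.0393), and the call was lost without any 1 sham library or without radiated number 1, 2 or 3 (adjusted p up to 0.119). Without sham number 2 the week 3 count was 0, with Bax at an adjusted p of 0.066 and Trp53inp1 at 0.0686 in edgeR, and Bax was also lost without sham number 1 (0.0621).

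Ccng1 and Phlda3 were above sham in control skin too. Sham skin held 170.2, 98.0 and 91.0 CPM of Ccng1, and control skin was higher by 1.09, 1.43 and 1.00 on the log2 scale in weeks 1 to 3 (edgeR adjusted p 0.0428, 0.0433 and 0.039). Of the 5 muscle markers, 5, 5 and 4 were higher than sham in the same weeks, and their part in this difference was not tested. Radiated skin of week 2 was higher by 0.94 (SE 0.23, edgeR adjusted p 0.0496). Phlda3 held 13.1, 9.71 and 10.3 CPM in sham skin, below all control libraries of weeks 2 and 3 and all radiated libraries of weeks 2, 3 and 4. It was higher than sham by 1.00 and 1.05 in control skin of weeks 2 and 3 (adjusted p 0.0388 and 0.0135 in edgeR), and by 1.56 and 0.85 in radiated skin of weeks 2 and 4 (adjusted p 0.0244 and 0.0179). Except for Phlda3 in control skin of week 3, each of these calls was lost without sham number 2 or 3, with an edgeR adjusted p of up to 0.19. In control skin, Ccng1 was also lost without number 2, 3 or 4 of weeks 1 and 2 or any 1 control library of week 3, and Phlda3 without number 2, 3 or 4 of week 2 (up to 0.13). In radiated skin of week 2, Ccng1 was lost without any 1 radiated library (up to 0.109) and Phlda3 without number 3 (0.0556). In radiated skin of week 2 the count was also 0 without radiated number 3 and 5 without radiated number 1. The shares of all genes called in these fits were not computed.

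Hair follicle RNA set sham skin apart from most other libraries. The summed level of 8 markers of hair-forming follicles (Krt71, Krt25, Krt27, Krt28, Krt35, Krt31, Msx2 and Hoxc13) was 827 to 9205 CPM in sham skin, 8.69 to 1430.6 CPM in control skin of week 2 and 8.98 to 15.9 CPM in radiated skin of week 2. The 12 cell-cycle genes that p53 represses through p21 summed to 419 to 819 CPM in sham skin, 185 to 293, 115 to 902 and 144 to 342 CPM in control skin of weeks 1 to 3, 190.1 to 217 CPM in radiated skin of week 2 and 585 to 742 CPM in radiated skin of week 4. Their part in the differences from sham was not tested.

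**Figure D4:**
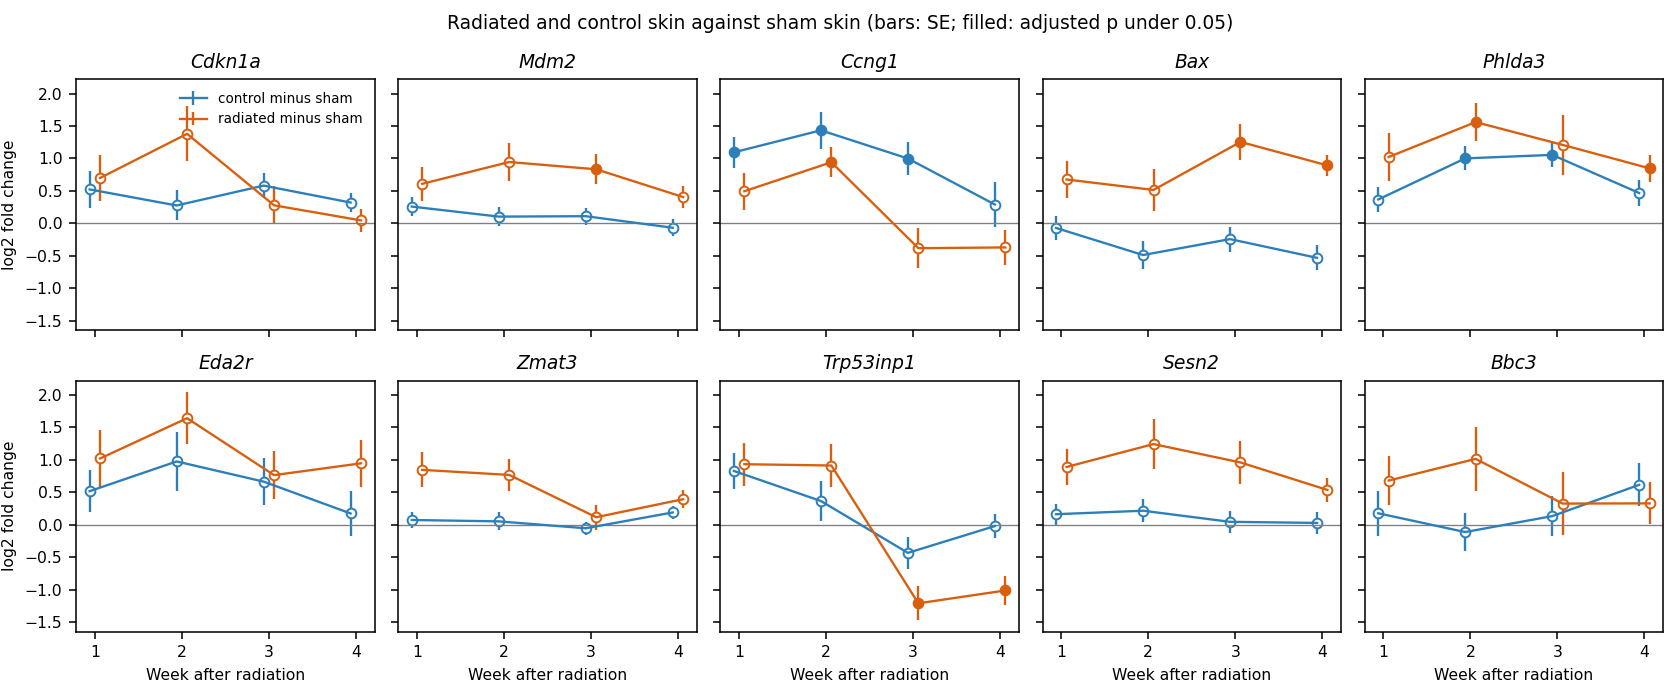
Log2 fold change against sham skin, by week after radiation, for radiated (orange) and control skin (blue). Bars are standard errors and filled points have an adjusted p under 0.05 in edgeR, and all points share the same 3 sham libraries. Bax lies above sham in radiated and below it in control skin, Trp53inp1 falls below sham in radiated skin of weeks 3 and 4, and Ccng1 and Phlda3 lie above sham in control skin of weeks 1 to 3.

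Ordered by group mean, radiated skin of week 2 was highest for 6 of the 10 genes: Cdkn1a, Mdm2, Phlda3, Eda2r, Sesn2 and Bbc3. For Cdkn1a it held 998 ± 562 CPM (SD, n = 4), above radiated skin of week 1 with 627 ± 276 CPM, and these neighbours did not differ beyond their spread. Zmat3 and Trp53inp1 were highest in radiated skin of week 1, with 212 ± 73.8 and 362 ± 154 CPM (SD, n = 4), Bax in radiated skin of week 3, with 37.2 ± 10.8 CPM, and Ccng1 in control skin of week 2, with 327 ± 85.9 CPM. Sham skin was lowest for Cdkn1a, Phlda3, Eda2r and Sesn2, for Cdkn1a by only 0.312 CPM and for Sesn2 by 0.581 CPM. Among these genes only Phlda3 had a step from sham to the next group larger than both SDs. The step from the highest group to the next was within the larger of their SDs in all 10 genes. For Bax, the 4 radiated groups ranked above sham and sham above the 4 control groups.

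Per kb of exon, which allows levels of different genes to be set side by side, the medians over the 35 libraries after Cdkn1a were 52.3 CPM for Ccng1, 29.3 for Trp53inp1, 15.5 for Mdm2, 12.1 for Phlda3, 11.4 for Zmat3, 10.5 for Bax, 7.16 for Sesn2, 3.12 for Eda2r and 2.59 for Bbc3. The lengths are those of all annotated exons of a gene, so genes with many transcripts are divided by more bases than a single transcript holds.

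Across the 35 libraries the genes fell only partly into step with each other. The highest Pearson correlations of log2 CPM among the 45 pairs were 0.77 for Mdm2 and Sesn2, 0.72 for Phlda3 and Sesn2, and 0.69 for Bax and Sesn2. The lowest were -0.47 for Bax and Ccng1 and -0.31 for Bax and Trp53inp1. These correlations run over libraries that include the group differences and share the scaling of each library, and they are given as a description. Among 12532 candidate genes above a level of 5 CPM on average, the ones most like Mdm2 were Tnfrsf10b (0.91), a death receptor, and Pmaip1 (0.87), which encodes NOXA. For Bax they were Apaf1 (0.92), the scaffold of the apoptosome, and Pstpip1 (0.88). For Ccng1 they were Lynx1 (0.95) and Tmem38a (0.95), for Cdkn1a Arid5b (0.85) and Sertad1 (0.83), and for Trp53inp1 Usp54 (0.86) and Aldh4a1 (0.86). Zmat3 was most like Exoc4 (0.87), Phlda3 like Tnfrsf1a (0.83), Sesn2 like Tbc1d2 (0.83), Eda2r like Epgn (0.77) and Bbc3 like Myl12b (0.74).

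Other genes of the pathway were read from 5 lists by role, of which 78 of 80 genes were matched. In the mean of 4 weeks 48.5% of all genes passed, 25.9% higher and 22.6% lower. Among 14 p53 targets of cell death 12 did, 9 higher and 3 lower, with a median log2 fold change of 0.61 over the 14 beside 0.06 over all genes. Pmaip1 rose from 17.7 ± 6.40 CPM in the control libraries to 46.1 ± 19.6 CPM in the radiated ones (SD, n = 16 each), by 1.43 (SE 0.16, edgeR adjusted p 5.62e-08), and in week 2 it was higher by 1.81 without passing (adjusted p 0.139). Apaf1 and Tnfrsf10b, named above as most like Bax and Mdm2, stood at 1.29 (SE 0.10) and 0.81 (SE 0.12), values given as a description because likeness over the same libraries chose them. The death receptor gene Fas stood at 0.31 and missed the threshold (edgeR adjusted p 0.0601). Pidd1, whose product forms a caspase-activating complex, was higher in week 3 by 2.08 (SE 0.63, edgeR adjusted p 0.0374).

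The p53 gene itself, Trp53, did not pass in any of the 4 weeks, and its mean level was 33.6 ± 9.56 CPM in the radiated and 29.0 ± 4.54 CPM in the control libraries (SD, n = 16 each). The mean log2 fold change was 0.23 (SE 0.10, edgeR adjusted p 0.0609). Mdm4, which holds p53 in check together with Mdm2, stood at 0.03 (edgeR adjusted p 0.739). Among 16 regulators tested, 10 passed in the mean of 4 weeks, against 48.5% of all genes, with 3 higher and 7 lower. Trp63, the p53 relative that maintains basal keratinocytes, fell by 1.61 in week 3, 1.37 in week 4 and 0.97 over the 4 weeks on the log2 scale (adjusted p 0.0053, 1.93e-05 and 3.04e-07 in edgeR).

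Of 15 targets of arrest and DNA repair, 8 passed in the mean of 4 weeks, near the 48.5% of all genes, with 6 higher, 2 lower and a median of 0.13. Gtse1, a G2 and S phase protein that binds p53, rose by 1.62 (SE 0.28, edgeR adjusted p 2.21e-05) and in week 3 by 2.46. Rrm2b, a subunit of ribonucleotide reductase used in repair, fell by 0.64 over the 4 weeks and by 1.25 in week 4 (adjusted p 3.14e-06 and 1.55e-05 in edgeR), and Btg2, an anti-proliferative gene, fell by 1.47 in week 4 (adjusted p 9.35e-04). Of 20 targets of metabolism and stress, 9 passed, again near the 48.5% of all genes, with 6 higher, 3 lower and a median of 0.18. Over the 4 weeks Pltp, a phospholipid transfer protein, rose by 1.48, while Ak1, an adenylate kinase abundant in muscle, fell by 0.89 (edgeR adjusted p 1.14e-04 and 6.48e-05). Ptp4a3, a phosphatase, fell by 1.05 in week 3 (edgeR adjusted p 0.00775), and Pltp rose by 2.45 in week 4. Sesn1, a relative of Sesn2, stood at -0.22 (edgeR adjusted p 0.145).

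The last list held 12 cell-cycle genes known to be repressed by p53 through p21. In weeks 1 and 2, 0 of 12 passed. In week 3, 7 of 12 were higher in radiated skin (13.6% of all genes) and in week 4, 10 of 12 (24.2%), and 0 were lower in either week, with medians of 1.04 and 1.12. Against sham, radiated skin had 2 of 12 lower in week 1 and 6 of 12 in week 2, with medians of -1.07 and -1.48. Of all genes, 1.75% and 5.06% passed in either direction. Radiated skin had 0 of 12 past the threshold in week 3 (18.2% of all genes) and 2 of 12 higher in week 4 (26.7%). The medians of these weeks were 0.0050 and 0.35. Control skin had 6 of 12 lower in week 1 (4.92%) and 8 of 12 in week 3 (11.4%), with medians of -1.35 and -1.31. In control skin of weeks 2 and 4, 0 of 12 passed (2.44% and 3.65%). Plk1, a mitotic kinase, rose by 2.32 in week 3 and by 1.61 in week 4 (adjusted p 0.00934 and 0.00137 in edgeR). Mki67, the gene of the Ki-67 proliferation antigen, stood at 237 ± 29.2 CPM in the radiated and 147 ± 69.9 CPM in the control libraries of week 4 (SD, n = 4 each) and missed the threshold (0.70, edgeR adjusted p 0.0752).

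**Figure D5:**
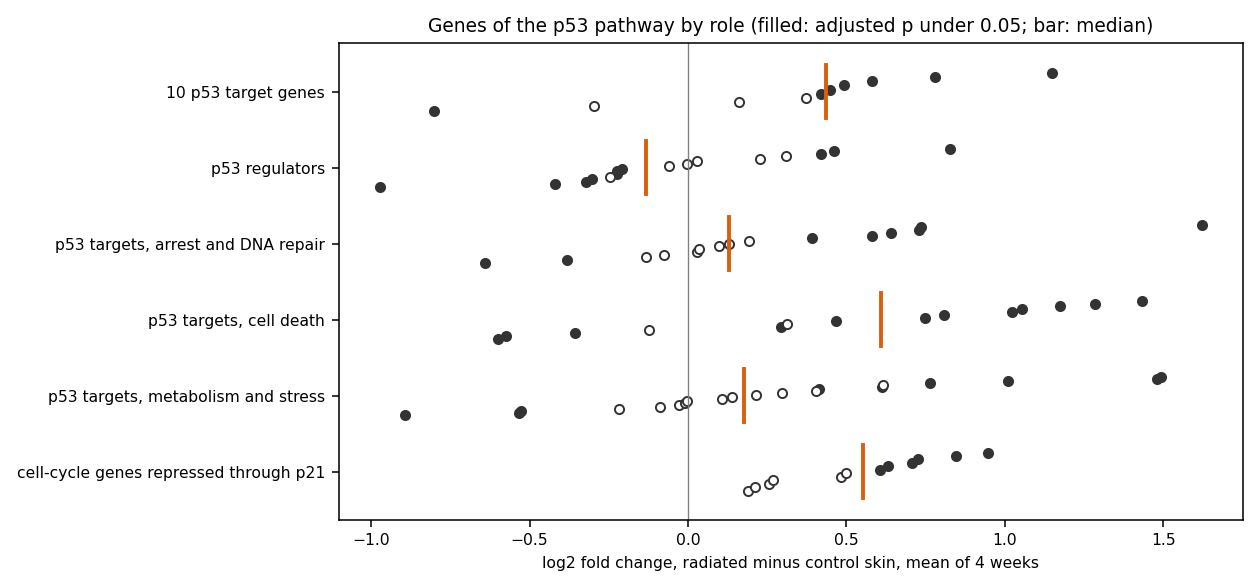
Log2 fold change of radiated minus control skin, as the mean of 4 weeks, for the 10 genes and for 5 lists of other pathway genes by role. Each point is a gene, filled points have an adjusted p under 0.05 in edgeR, and orange bars are medians. The medians are 0.43 for the 10 genes, 0.61 for targets of cell death and 0.55 for the cell-cycle genes, and -0.13 for the regulators.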

How the data were processed

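The authors deposited 1 table of estimated counts per gene, not scaled between libraries. Skin was stored in RNAlater, RNA came from an RNeasy kit, and Kallisto and DESeq2 served for the authors' analysis, per the labels' protocols. Trim Galore 0.6.7, kallisto 0.46.2 and mm10 are named in the submitters' processing notes. The transcriptome release and the step from transcripts to genes are not given in the sources used here. Kallisto splits reads that fit several transcripts, and 29.5% to 32.5% of a library's values were not whole. Values were rounded here.

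Tests were run in R 4.3.3 with edgeR 4.0.16 (TMM scaling, filterByExpr, quasi-likelihood F test, Benjamini-Hochberg adjustment over all genes tested, threshold 0.05). Each pair of groups was fitted alone, and a model of the 32 radiated and control libraries gave the mean of 4 weeks and the change over weeks (3 interaction terms). The standard error is the size of the log2 fold change divided by the square root of F. Log2 CPM used a prior count of 2 over 19813 genes. The scripts were tested on simulated data.

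The pairing comes from the labels: 35 samples of 19 mice, numbered alike within a week. Within a week, deviations from the group means correlated, between a radiated and a control sample of 1 number, by 0.0706, 0.173, 0.0525 and -0.0198 on average in weeks 1 to 4 across genes, against -0.0237, -0.0568, -0.0168 and 0.00738 for other numbers. Sham mice pair with no other sample. The labels name no sequencing batch. No 2 libraries were identical, and the lowest reduced chi-square of 51 pairs within a group was 21.2, so each library counted as 1 replicate. Nothing else in the labels says how far samples of a group were handled separately.

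The 10 genes and all lists were chosen with earlier results of these data known. Of other pathway genes, those named were the top 3 up and the top 3 down by fold past the threshold, with a mean of at least 1 CPM, in radiated against control skin of weeks 3 and 4 and the mean of 4 weeks, with Trp53, Mdm4, Pmaip1, Fas, Sesn1 and Mki67 whatever their values. One gene that this rule names is not reported here. Genes named as most alike were the 2 with the highest correlation, of which some are left out. Marker lists for 10 cell types were read. In week 4, 4 of 5 markers of fibroblasts, 4 of 5 of endothelium, 4 of 5 of melanocytes and 5 of 7 of hair-forming follicles were higher in radiated skin. Of adipocyte markers 1 of 5 was lower, and 1 of 5 T cell markers was higher and 1 lower. In that week 24.2% of all genes passed in each direction. The hair-forming marker sums of week 4 were 124, 8.96, 2349 and 27.0 CPM in radiated skin of numbers 1 to 4. In control skin they were 17.2 to 21.8 CPM. Gene positions and exon lengths are from GENCODE M21 (GRCm38), promoters from RefSeq (GRCm38.p6). Alternatives were DESeq2 1.42.0, its median-ratio factors in edgeR, total-count scaling, no filter on low counts, the replicate number as a block, 1 fit of all 35 libraries, and leaving out each library.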

Additional observations from a re-analysis of the deposited data

Results flagged for a closer look

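Of 80 sets of 4 libraries tested (10 genes in the 8 groups of 4), 4 held a library far from the other 3 by Dixon's criterion, and chance alone flags about 1 in 20. Phlda3 in radiated skin of week 3 was 50.8 CPM in number 3 and 15.0 to 17.8 CPM in the others. Sesn2 in the same library was 66.5 CPM, against 29.7 to 30.8 CPM in the others. Trp53inp1 in radiated skin of week 2 was 604 CPM in number 3 and 255 to 283 CPM in the others. Sesn2 in radiated skin of week 1 was 21.3 CPM in number 1 and 41.5 to 46.8 CPM in the others.

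The radiated minus control difference of Trp53inp1 changed over the weeks by the test of the change itself (adjusted p 0.0401 in edgeR).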

How the results depend on the processing

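With 4 libraries a group, 3 of sham, calls near the threshold turned on single libraries. Leaving out 1 library at a time, the number of the 10 genes called in radiated against control skin was 0 to 2 in week 1, 0 to 1 in week 2 (5 to 9 at an unadjusted p under 0.05), 2 to 5 in week 3 and 2 to 5 in week 4, and 0 in the change over weeks (0 to 0, leaving out a number in each group). Against sham it was 0 to 1, 0 to 5 and 0 to 3 in radiated skin of weeks 1 to 3, and 0 to 2, 0 to 2 and 1 to 3 in control skin of weeks 1 to 3. The share of all genes called was not computed for fits that leave out a library, so these counts have no background. DESeq2 called 1 gene in radiated against control skin of week 2 (4.44% of all genes) and 2 in the change over weeks (20.5%). It called 1, 7, 5 and 5 in radiated against sham skin of weeks 1 to 4 (6.78%, 14.1%, 26.7% and 32.8%). In control against sham skin of week 1 it called 2 (17.7%). The 2 counts of 2 genes lie near their shares. The fit of all 35 libraries called 3 genes in radiated against control skin in week 2 (2.75%) and 3 in week 4 (35%). Against sham it called 1, 7 and 5 in radiated skin of weeks 1 to 3 (6.18%, 16.4% and 32.3%). In control skin of week 2 it called 1 against sham (7.87%). Total-count scaling called 1 in radiated and 1 in control against sham skin of week 2, where it called 965 and 520 of all genes.

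With the replicate number as a block, 1 of the 10 genes passed in radiated against control skin of week 2 (3.7% of all genes). In the change over weeks 2 passed (15.8%). The numbers pair no sham mouse, and there the block left 0 calls in radiated skin of week 2 and 0, 0 and 0 in control skin of weeks 1 to 3. The block turned Phlda3 in radiated against control skin of week 3 to -0.10 and Sesn2 in control against sham skin of week 3 to -0.017.

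Total-count scaling moved the median of all genes in radiated against control skin by 0.14, 0.06, 0.24 and 0.09 in weeks 1 to 4 and by 0.12 in the mean of 4 weeks, in control against sham skin by -0.15, -0.18 and -0.17 in weeks 1 to 3, and in radiated against sham skin of week 2 by -0.13. In control against sham skin it turned Zmat3 to -0.081 in week 1, Mdm2 to -0.075 and Zmat3 to -0.13 in week 2, Mdm2 to -0.052, Sesn2 to -0.12 and Bbc3 to -0.022 in week 3, and Sesn2 to -0.0083 in week 4. None of these had passed.

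Leaving out 1 library also turned the sign of differences that had not passed. In radiated against control skin these ran, as log2 fold changes, from -0.11 to 0.43 for Cdkn1a and -0.18 to 0.28 for Trp53inp1 in week 1, and from -0.51 to 0.30 for Phlda3, -0.13 to 0.20 for Eda2r and -0.39 to 0.38 for Bbc3 in week 3. Leaving out 1 number in each group, Bbc3 in the mean of 4 weeks ran from -0.063 to 0.58. In radiated against sham skin Ccng1 ran from -0.56 to 0.00034 and Bbc3 from -0.18 to 0.65 in week 3, and Cdkn1a from -0.074 to 0.25 in week 4. In control against sham skin the ranges were -0.22 to 0.081 for Bax and -0.079 to 0.45 for Bbc3 in week 1, -0.038 to 0.12 for Zmat3 and -0.35 to 0.19 for Bbc3 in week 2, -0.049 to 0.18 for Sesn2 and -0.12 to 0.41 for Bbc3 in week 3, and -0.17 to 0.045 for Mdm2, -0.077 to 0.68 for Eda2r, -0.14 to 0.20 for Trp53inp1 and -0.085 to 0.17 for Sesn2 in week 4. Where no library or scaling is named, the cause of a change was not tested.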
